A study of Rattus norvegicus with 12 samples.

Results

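Retinal lineage transcription factors are DNA-binding proteins that direct which class of retinal cell a progenitor becomes, and many stay on in the adult cell as part of its identity. The 51 genes described here were taken by name from a deposited expression table of 30560 genes, and each of the 51 names matched 1 row. They were measured in the retinas of 12 rats by sequencing of total RNA, 1 library per rat. In 6 rats, 2 µL of 20 mM NMDA had been injected into the vitreous, and in the 6 others 2 µL of PBS. NMDA activates one kind of glutamate receptor, and its injection is used to kill ganglion and amacrine cells by overstimulation, as a model of the neuron loss in glaucoma. Strain, age, sex and the time from injection to collection are not given in the sources used here, nor is it stated which retinal cells each animal still had.

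The vertebrate retina is built in layers. Rods and cones, the photoreceptors, signal to bipolar cells, which in turn drive ganglion cells, the neurons that send axons to the brain. Horizontal and amacrine cells modulate these steps, and Müller glia span the tissue. An early set of homeobox genes marks the whole eye field, and later factors, mostly of the homeobox, basic helix-loop-helix, T-box, zinc finger and nuclear receptor families, divide the cell classes. The 51 genes were placed in classes by the cells they are best known to mark, mostly from work in mice, and several are also active in a second class.

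Total counts ran from 16415611 to 34022023 per library. The 46 members with enough counts were tested together with all other genes, 16260 in all, and 5 were not tested. Levels are in CPM, counts scaled to a common total. Log2 fold changes are NMDA minus PBS, each with its SE, and a gene passed where its Benjamini-Hochberg adjusted p over all tested genes was under 0.05 (edgeR's quasi-likelihood test, two-sided). The library labels give no litter, day or sequencing batch. On the second principal component of all genes NMDA 1 and NMDA 3 stood at opposite ends, and NMDA 1 had the least RNA of lens markers (72.9 CPM in sum, against 597 CPM or more in each of the 11 other libraries).

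Of the 46 tested members, 19 fell, 4 rose and 23 did not pass. The 23 that passed were 50% of those tested, where 37.9% of all tested genes passed. The share that fell was 41.3%, against 17.5% of all genes, and the share that rose was 8.7%, against 20.4%. The median log2 fold change was -0.20 over the members and 0.01 over all tested genes. In 12 members (26.1%) every NMDA library lay below every PBS library, as in 8.66% of all genes, and in 2 members (4.35%) every NMDA library lay above, as in 9.43% of all genes. With scaling by library size only, 64.6% of the genes that passed were higher with NMDA, against 53.8% with the scaling used here, and 17 members then fell and 4 rose. A test on log2(FPKM + 1) gave 64% higher, with 18 members that fell and 4 that rose.

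**Figure D1:**
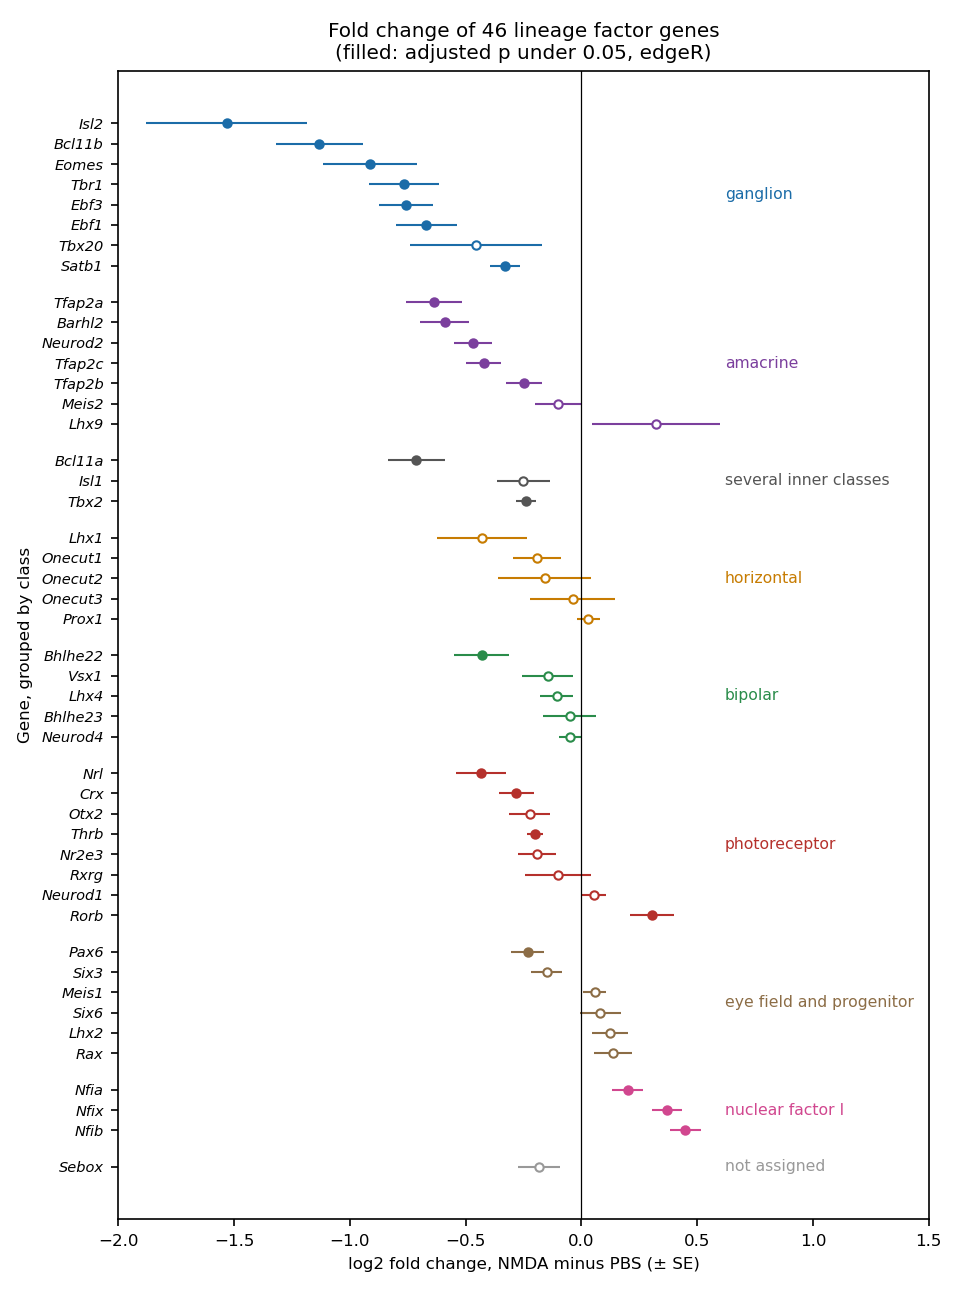
Log2 fold change (NMDA minus PBS, horizontal axis) with its SE for the 46 tested genes, grouped by cell class down the page. Filled points passed at an adjusted p under 0.05 (edgeR). The ganglion and amacrine genes lie mostly left of 0, down to -1.53 for Isl2, and the 3 nuclear factor I genes lie right of 0.

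Factors of ganglion cells fell the most. Of 11 members in this class 8 were tested and 7 of these fell, with a median log2 fold change of -0.76. Since the libraries are of whole retina, fewer or more cells of a type and less or more RNA per cell cannot be told apart. This holds here and in the results that follow. Isl2, a LIM homeobox gene that in mice marks ganglion cells projecting across the midline (ENSRNOG00000015336, chromosome 8, 55923805 to 55928790), had the lowest, median and highest levels of 0.78, 1.36 and 3.66 CPM with NMDA, against 4.10, 5.05 and 7.09 CPM with PBS. The groups did not overlap, and NMDA 3 and NMDA 1 came nearest to the PBS libraries. The log2 fold change was -1.53 ± 0.35 (SE, n = 6 each; edgeR adjusted p = 0.0041), a 2.89-fold lower level.

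Bcl11b, a zinc finger gene also known as Ctip2 (ENSRNOG00000005776, chromosome 6, 126834531 to 126928224), was at 0.851, 1.15 and 1.92 CPM (lowest, median, highest) with NMDA, against 2.38, 2.64 and 3.25 CPM with PBS. Its log2 fold change was -1.13 ± 0.19 (SE; edgeR adjusted p = 0.000541), again without overlap between the groups. Eomes, also called Tbr2, a T-box gene needed for the ganglion cells that sense light themselves, was at 1.58, 2.68 and 3.86 CPM with NMDA, against 3.43, 4.84 and 6.74 CPM with PBS. Here the groups overlapped, as NMDA 3 lay above PBS 6, and the log2 fold change was -0.91 ± 0.20 (SE; edgeR adjusted p = 0.0035).

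Tbr1, the T-box gene of a subset of ganglion cells in mice (ENSRNOG00000005049, chromosome 3, 46351213 to 46361041), was at 2.14, 3.04 and 3.78 CPM with NMDA, against 4.72, 5.09 and 5.35 CPM with PBS. The PBS libraries were tightly grouped and no NMDA library reached them (log2 fold change -0.77 ± 0.15, edgeR adjusted p = 0.00168). Its promoter window from RefSeq (GRCr8, chr3:66759553-66759852, plus strand, from 250 bases before to 50 after the start site) is shown because it holds 2 matches of TAATTA, a core letter run bound by many homeodomain proteins, which are in capitals.
Tbr1: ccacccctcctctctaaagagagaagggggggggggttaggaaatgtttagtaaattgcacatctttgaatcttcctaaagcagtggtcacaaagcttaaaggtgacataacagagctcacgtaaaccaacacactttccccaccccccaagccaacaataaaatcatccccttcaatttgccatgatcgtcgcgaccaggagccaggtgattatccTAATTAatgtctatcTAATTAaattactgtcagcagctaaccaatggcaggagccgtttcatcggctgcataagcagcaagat
TAATTA, the same on both strands, was found in the windows of 2 of 37 members with a sequence, Tbr1 and Nfib, and in 5.35% of all 27457 windows. A match is a description of these letters and was not tied to the change in level.

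Ebf3 and Ebf1 encode helix-loop-helix factors of ganglion cells that amacrine and bipolar cells also use. Ebf3 was at 15.5, 18.1 and 25.99 CPM with NMDA, against 31.5, 33.5 and 36.1 CPM with PBS (log2 fold change -0.76 ± 0.12, edgeR adjusted p = 0.000383). Ebf1 was at 10.2, 12.7 and 18.2 CPM with NMDA, against 19.4, 20.5 and 24.8 CPM with PBS (-0.67 ± 0.13, edgeR adjusted p = 0.00156). In both genes the groups did not overlap, and the highest NMDA libraries were NMDA 1 for Ebf3 and NMDA 3 for Ebf1. Ebf1 also marks pericytes. The 9 markers of pericytes and smooth muscle together summed to 116 to 364 CPM with NMDA and to 138 to 273 CPM with PBS. NMDA 3 and PBS 5 had the highest sums of their groups, and Myh11, a smooth muscle gene, was highest there too. Of the 9 markers 1 fell, 1 rose and 7 did not pass. The part of pericytes and smooth muscle in the Ebf1 level was not tested.

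Satb1, a chromatin organiser gene that marks direction-selective ganglion cells in mice, was at 18.4, 20.2 and 23.8 CPM with NMDA, against 24.5, 25.4 and 28.6 CPM with PBS. This was the smallest of the 7 falls, and the groups still did not overlap (log2 fold change -0.33 ± 0.06, edgeR adjusted p = 0.00142). Satb1, Bcl11b and Eomes are also genes of T and NK cells, and Bcl11a, described further on, and Ebf1 are genes of B cells. Summed over 11 T and NK cell markers, the level was 3.54 to 12.2 CPM with NMDA and 1.18 to 2.94 CPM with PBS, and of the 4 that were tested 2 rose and none fell. The 7 B cell markers summed to 2.34 to 4.41 CPM with NMDA and 2.27 to 3.49 CPM with PBS, and of the 2 that were tested 1 fell and none rose. The part of these cells in the levels of the 5 member genes named was not tested.

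Tbx20, a T-box gene, did not pass (0.691, 0.885 and 1.95 CPM with NMDA, against 1.09, 1.22 and 2.30 CPM with PBS). Its log2 fold change was -0.45 ± 0.28 (SE; edgeR adjusted p = 0.232). NMDA 3 had the highest NMDA level and PBS 5 the highest PBS level. Leaving out NMDA 3 gave -0.75, which passed (adjusted p = 0.0225; range over all alternatives 0.0185 to 0.486). The same libraries stood highest in 4 pigment cell genes of the pigment epithelium list and in 3 smooth muscle genes of the pericyte list. Dct was at 298.6 CPM in NMDA 3 and 191.6 CPM in PBS 5, and at 15.7 to 62.4 CPM in the 10 others, and Pmel, Tyr and Mlana were highest in the same libraries. Myh11 was at 140.5 CPM in NMDA 3 and 88.7 CPM in PBS 5, and Acta2 and Des also peaked there. Rpe65, which the pigment epithelium itself uses, followed only in part. It was at 5.92 CPM in NMDA 3, the highest of the NMDA libraries but below every PBS library. In PBS 5 it was at 7.06 CPM, the lowest of the PBS libraries. The part of these genes in the Tbx20 level was not tested.

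Atoh7, the factor that makes progenitors competent to become ganglion cells, and Dlx1 and Dlx2, homeobox genes of developing ganglion cells, had few counts. Atoh7 had 12 counts in all NMDA libraries together and 20 in all PBS libraries, Dlx1 had 37 and 29, and Dlx2 had 1 and 6. They were left out by the filter on low counts, and in a fit without the filter none passed (edgeR adjusted p = 0.324, 0.952 and 0.284).

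**Figure D2:**
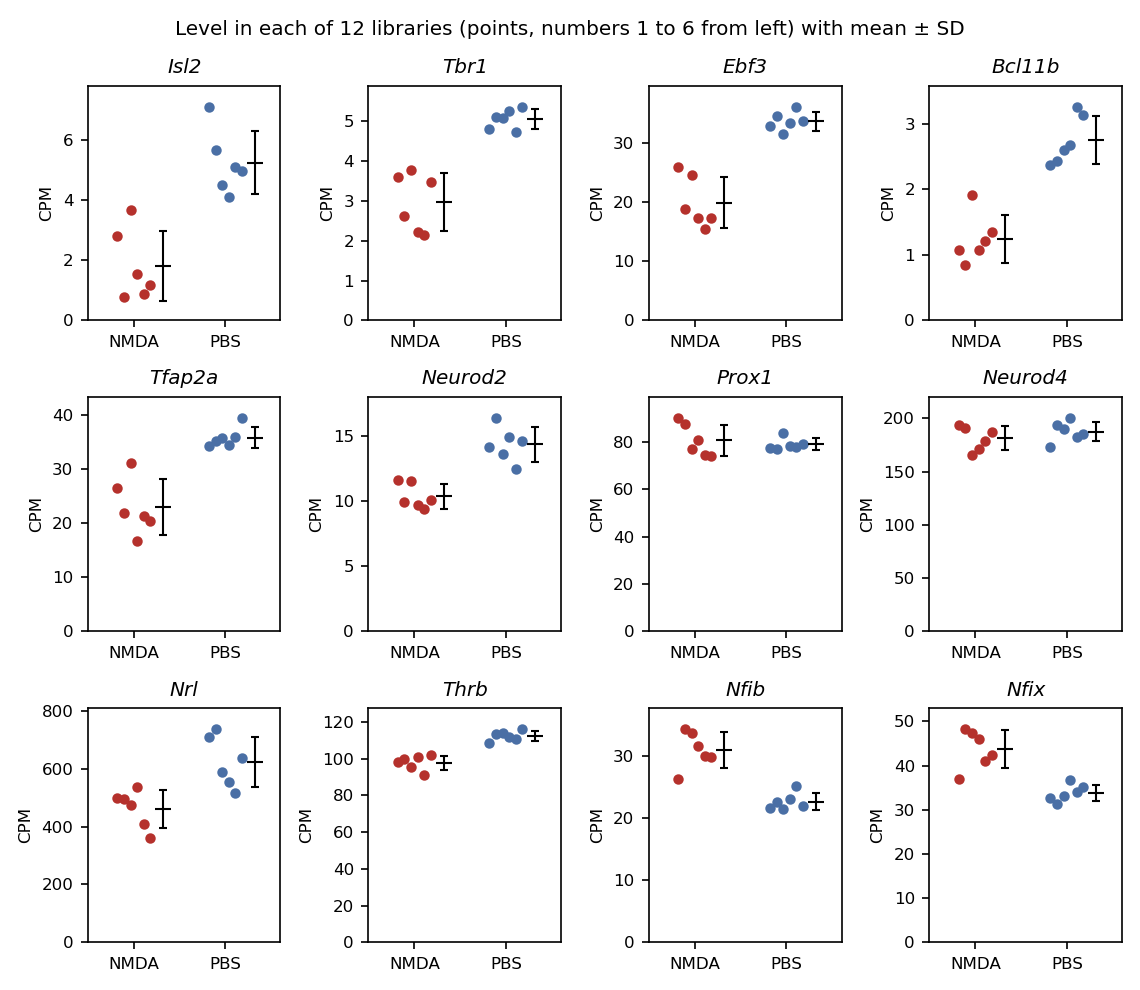
Level in CPM (vertical axes, from 0) of 12 members in each NMDA library (left, red) and each PBS library (right, blue), with the mean ± SD in black. In Isl2, Tbr1, Ebf3, Bcl11b, Tfap2a, Neurod2 and Thrb all NMDA points lie below all PBS points, in Nfib and Nfix all lie above, and in Prox1, Neurod4 and Nrl the groups overlap.

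Amacrine factors fell by smaller amounts. Of 9 members 7 were tested, 5 fell and none rose, with a median of -0.42. Of 8 tested amacrine markers that are no transcription factors 8 fell, with a median of -0.56. The AP-2 genes Tfap2a, Tfap2b and Tfap2c encode related factors that specify amacrine cells, Tfap2b also horizontal cells. Tfap2a (ENSRNOG00000015522, chromosome 17, 24024432 to 24047507) was at 16.7, 21.6 and 31.2 CPM with NMDA, against 34.2, 35.4 and 39.3 CPM with PBS. All NMDA libraries were below the PBS libraries (log2 fold change -0.64 ± 0.12, edgeR adjusted p = 0.0013).

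Tfap2c was at 20.3, 23.3 and 27.1 CPM with NMDA, against 29.95, 31.6 and 33.6 CPM with PBS (log2 fold change -0.42 ± 0.08, edgeR adjusted p = 0.000902), also without overlap. Tfap2b, the most abundant amacrine member at 28.4 ± 2.93 FPKM with NMDA and 32.6 ± 2.87 FPKM with PBS (SD, n = 6 each; counts per length), was at 98.3, 118 and 128 CPM with NMDA, against 113, 139.6 and 145.6 CPM with PBS. Its groups overlapped and its fall was small (-0.25 ± 0.08, edgeR adjusted p = 0.0249). Tfap2b passed under only 15 of 24 alternatives. Among others, the call ended in turn without NMDA 4, NMDA 5, PBS 2 or PBS 5 (adjusted p = 0.0531, 0.0566, 0.0536 and 0.0506; 0.00645 to 0.0569 over all alternatives).

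Barhl2, a homeobox gene of amacrine and ganglion cells, was at 10.7, 12.1 and 15.9 CPM with NMDA, against 15.4, 19.0 and 20.7 CPM with PBS. The ranges overlapped only through NMDA 1 and PBS 3, and the log2 fold change was -0.59 ± 0.11 (SE; edgeR adjusted p = 0.00087). Neurod2, a basic helix-loop-helix gene of amacrine subtypes in mice, was at 9.38, 10.03 and 11.6 CPM with NMDA, against 12.5, 14.4 and 16.4 CPM with PBS, with no overlap (-0.47 ± 0.08, edgeR adjusted p = 0.000716). Its relative Neurod6, which marks a narrow amacrine type in mice, was left out by the filter, with 27 counts in the NMDA libraries together and 76 in the PBS libraries. In the fit without a filter it was lower (log2 fold change -1.68, edgeR adjusted p = 0.00106), with levels of 0.0767 to 0.261 CPM with NMDA and 0.309 to 0.628 CPM with PBS.

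Lhx9 and Meis2 did not pass. Lhx9, a LIM homeobox gene, had the highest log2 fold change of the class, 0.32 ± 0.28 (SE; edgeR adjusted p = 0.396), with 10.8, 22.3 and 46.1 CPM with NMDA, against 14.2, 19.1 and 26.3 CPM with PBS. NMDA 1 was the lowest and NMDA 3 the highest of all 12 libraries, and PBS 5 was the highest of the PBS libraries. Dct, given above, was likewise lowest in NMDA 1 and highest in NMDA 3, with PBS 5 the highest PBS library. Among the NMDA libraries Rpe65, Rgr and Ttr were also lowest in NMDA 1 and highest in NMDA 3. In NMDA 3 they still lay below every PBS library, and their highest PBS library was PBS 3. The part of Dct, Rpe65, Rgr and Ttr in the Lhx9 level was not tested. Without NMDA 3 the log2 fold change of Lhx9 was 0.03. Meis2, a homeobox gene of GABA-releasing amacrine cells, was at 51.9 to 78.8 CPM with NMDA and 63.1 to 82.7 CPM with PBS (-0.10 ± 0.10, edgeR adjusted p = 0.467). Ptf1a, the factor that commits progenitors to amacrine and horizontal fates, had no count in any library, which allows a level of up to 0.00918 CPM over the 12 libraries together (3 counts, counting error only).

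Several inner retinal classes share 3 further members, of which 2 fell. Bcl11a, a zinc finger gene related to Bcl11b, was at 2.80, 4.28 and 5.10 CPM with NMDA, against 6.401, 6.75 and 7.30 CPM with PBS. The groups were well apart (log2 fold change -0.71 ± 0.12, edgeR adjusted p = 0.000748). An unnamed gene that overlaps Bcl11a in the table had 4.47% as many counts. Tbx2, a T-box gene of the dorsal retina, was at 92.8, 103.5 and 107 CPM with NMDA, against 114, 119 and 126.6 CPM with PBS, a small change without overlap (-0.24 ± 0.04, edgeR adjusted p = 0.000901). Isl1, the relative of Isl2 used by ganglion, ON bipolar and starburst amacrine cells, was at 34.1, 40.6 and 54.6 CPM with NMDA, against 41.96, 51.1 and 59.7 CPM with PBS and did not pass (-0.25 ± 0.11, edgeR adjusted p = 0.101). NMDA 1 was the highest NMDA library of Isl1, and without it Isl1 passed at -0.35 (adjusted p = 0.0113; 0.00484 to 0.212 over all alternatives).

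No horizontal cell factor passed. Over 5 members the log2 fold changes ran from -0.43 to 0.03, with a median of -0.16. Lhx1, the LIM homeobox gene that places horizontal cells in their layer, had the largest, with 2.60, 4.801 and 6.36 CPM with NMDA, against 5.07, 6.29 and 7.40 CPM with PBS (-0.43 ± 0.20, edgeR adjusted p = 0.101). NMDA 5 and NMDA 6 were low, and NMDA 1, NMDA 2 and NMDA 3 were within the PBS range. Without NMDA 1 the fold change of Lhx1 was -0.55 and passed (adjusted p = 0.0358; 0.0217 to 0.197 over all alternatives).

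Onecut1, the gene of a factor required for horizontal cells, was at 9.48, 10.9 and 13.0 CPM with NMDA, against 9.96, 12.7 and 14.1 CPM with PBS (log2 fold change -0.19 ± 0.10, edgeR adjusted p = 0.172). Its relatives Onecut2 and Onecut3 were at -0.16 ± 0.20 and -0.04 ± 0.18. Prox1, a homeobox gene of horizontal cells that AII amacrine and bipolar cells also express, averaged 80.8 ± 6.68 CPM with NMDA and 79.1 ± 2.49 CPM with PBS (SD, n = 6 each; 0.03 ± 0.05, edgeR adjusted p = 0.686). Of 5 other markers used for horizontal cells 4 fell (Calb1, Gja10, Slc4a3 and Sept4) and 1 rose (Tpm3). Among all tested genes 17.5% fell and 20.4% rose. Gja10 was low, at 1.28 to 1.725 CPM with NMDA and 1.55 to 2.58 CPM with PBS. How far these markers are particular to horizontal cells was not tested. The factors and the other markers gave different counts, and that difference was not tested.

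Bipolar factors moved little. Of 5 members Bhlhe22 alone passed, and the median was -0.11. Bhlhe22, a basic helix-loop-helix gene of OFF cone bipolar cells and some amacrine cells in mice, was at 16.6, 19.6 and 25.6 CPM with NMDA, against 23.6, 26.0 and 32.8 CPM with PBS (log2 fold change -0.43 ± 0.12, edgeR adjusted p = 0.0116). NMDA 3, the highest NMDA library, lay within the PBS range. Vsx1, the homeobox gene of cone bipolar cells, was at 20.9, 22.5 and 31.2 CPM with NMDA, against 21.5, 26.1 and 32.9 CPM with PBS (-0.15 ± 0.11, edgeR adjusted p = 0.327). Lhx4 was at -0.11 ± 0.07, Bhlhe23, a factor gene of rod bipolar cells, at -0.05 ± 0.11 and Neurod4 at -0.05 ± 0.05 (SE). Neurod4, a basic helix-loop-helix gene of bipolar precursors, had the smallest SE of the class, at 181 ± 11.2 CPM with NMDA and 188 ± 9.30 CPM with PBS (SD, n = 6 each).

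The most abundant members per length were 5 of the 8 photoreceptor factors. Nrl, Crx, Nr2e3, Otx2 and Neurod1 took the first 5 places among the 51 genes in the PBS libraries. Rorb was in place 13, Thrb in place 16 and Rxrg in place 37. Nrl averaged 654 ± 87.3 FPKM with NMDA and 854 ± 115 FPKM with PBS (SD, n = 6 each). Crx averaged 404 ± 43.8 FPKM with NMDA and 475 ± 31.6 FPKM with PBS. By contrast the ganglion factor Isl2 was at 1.02 ± 0.649 FPKM with NMDA and 2.88 ± 0.566 FPKM with PBS. Of the 8 photoreceptor members 3 fell, 1 rose and 4 did not pass, with a median log2 fold change of -0.20. Of 9 rod markers 7 fell and none rose (median -0.40), and of 7 tested cone markers 3 fell and none rose (median -0.26).

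Nrl, the leucine zipper gene that decides rod over cone fate (ENSRNOG00000018528, chromosome 15, 29008104 to 29009832), was at 359, 484 and 536 CPM with NMDA, against 517, 613 and 735.5 CPM with PBS. NMDA 4 overlapped PBS 5, and the log2 fold change was -0.43 ± 0.11 (SE; edgeR adjusted p = 0.00711). Crx, an OTX-type homeobox gene that activates most photoreceptor genes (ENSRNOG00000013890, chromosome 1, 76540141 to 76545818), was at 298.7, 362 and 413 CPM with NMDA, against 398, 435 and 466.4 CPM with PBS (-0.28 ± 0.08, edgeR adjusted p = 0.0107). Only NMDA 1 lay within the PBS range. Thrb, which encodes the thyroid hormone receptor that controls cone opsin choice (ENSRNOG00000006649, chromosome 15, 7685180 to 7882916), was at 91.2, 98.7 and 102 CPM with NMDA, against 108, 112.5 and 116 CPM with PBS. The shift was small and the groups did not overlap (-0.20 ± 0.03, edgeR adjusted p = 0.000669).

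The promoter windows of these 3 genes are shown because each fell and because CRX acts on many photoreceptor promoters. They are RefSeq windows of GRCr8, Crx at chr1:85681803-85682102, Nrl at chr15:32981393-32981692 and Thrb at chr15:10461397-10461696, all on the minus strand and printed 5′ to 3′ from 250 bases before to 50 after the start site. Capitals mark matches on either strand to TAATCC (OTX and CRX), GCCNNNGGC (AP-2) or CATCTG (E box), where a match on the other strand appears as its reverse complement.
Crx: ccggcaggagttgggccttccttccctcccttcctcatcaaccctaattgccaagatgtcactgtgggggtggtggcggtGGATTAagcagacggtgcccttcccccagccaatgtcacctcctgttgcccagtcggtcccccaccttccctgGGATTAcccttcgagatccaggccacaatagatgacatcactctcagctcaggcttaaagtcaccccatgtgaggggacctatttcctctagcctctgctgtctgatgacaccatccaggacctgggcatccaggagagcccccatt
Nrl: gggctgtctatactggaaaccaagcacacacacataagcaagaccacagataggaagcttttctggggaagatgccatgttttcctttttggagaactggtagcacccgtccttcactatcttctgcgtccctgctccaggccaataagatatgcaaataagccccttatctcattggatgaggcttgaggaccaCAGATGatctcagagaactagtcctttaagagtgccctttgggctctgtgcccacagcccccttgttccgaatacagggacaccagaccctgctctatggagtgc
Thrb: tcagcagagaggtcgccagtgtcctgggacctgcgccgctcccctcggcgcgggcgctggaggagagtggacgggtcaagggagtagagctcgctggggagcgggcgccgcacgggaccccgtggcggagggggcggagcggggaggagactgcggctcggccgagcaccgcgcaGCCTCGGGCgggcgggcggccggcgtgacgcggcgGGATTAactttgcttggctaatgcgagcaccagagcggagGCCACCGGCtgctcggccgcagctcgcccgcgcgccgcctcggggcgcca
Of 37 members with a window, Crx with 2 matches and Thrb with 1 match held TAATCC, as did 7.11% of all 27457 windows. Nrl held 1 CATCTG, found in 4 members and in 16.3% of all windows, and Thrb held 2 matches of GCCNNNGGC, found in 8 members and in 15.7%. No match of TAATCC in the Nrl window says only that these letters are not in this stretch. As with Tbr1, the matches describe the letters and were not tied to the changes in level.

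Rorb, the nuclear receptor gene that acts upstream of Nrl in rod development (ENSRNOG00000013413, chromosome 1, 216363629 to 216544390), rose. It was at 74.8, 82.2 and 105 CPM with NMDA, against 56.5, 73.9 and 76.7 CPM with PBS (log2 fold change 0.30 ± 0.09, edgeR adjusted p = 0.0223). NMDA 2 lay within the PBS range, and without PBS 6 the change was 0.27 and did not pass (adjusted p = 0.0511; 0.0112 to 0.0511 over all alternatives).

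Otx2 and Nr2e3 were lower on average and did not pass. Otx2, needed for photoreceptor and bipolar fates, was at 334, 424.5 and 491 CPM with NMDA, against 418, 484 and 534 CPM with PBS (log2 fold change -0.22 ± 0.09, edgeR adjusted p = 0.0579). Nr2e3, which keeps cone genes off in rods, was at 268, 334 and 347 CPM with NMDA, against 324.5, 359 and 407 CPM with PBS (-0.19 ± 0.08, edgeR adjusted p = 0.0784). Otx2 passed under 8 of 24 alternatives and Nr2e3 under 5. Both passed without NMDA 1, Otx2 at -0.29 (adjusted p = 0.0117; 0.00559 to 0.121 over all alternatives) and Nr2e3 at -0.23 (adjusted p = 0.0452; 0.0315 to 0.167 over all alternatives). Otx2 also passed without PBS 5 (-0.26, adjusted p = 0.0312). With the replicate number as a block both passed as well (edgeR adjusted p = 0.00559 for Otx2 and 0.0315 for Nr2e3). No label ties equal numbers together, and they did not pair the libraries (correlations of deviations -0.19 to 0.15). A pass with this block therefore adds no support. Neurod1 (0.05 ± 0.05) and the cone retinoid receptor gene Rxrg (-0.10 ± 0.14) did not pass.

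**Figure D3:**
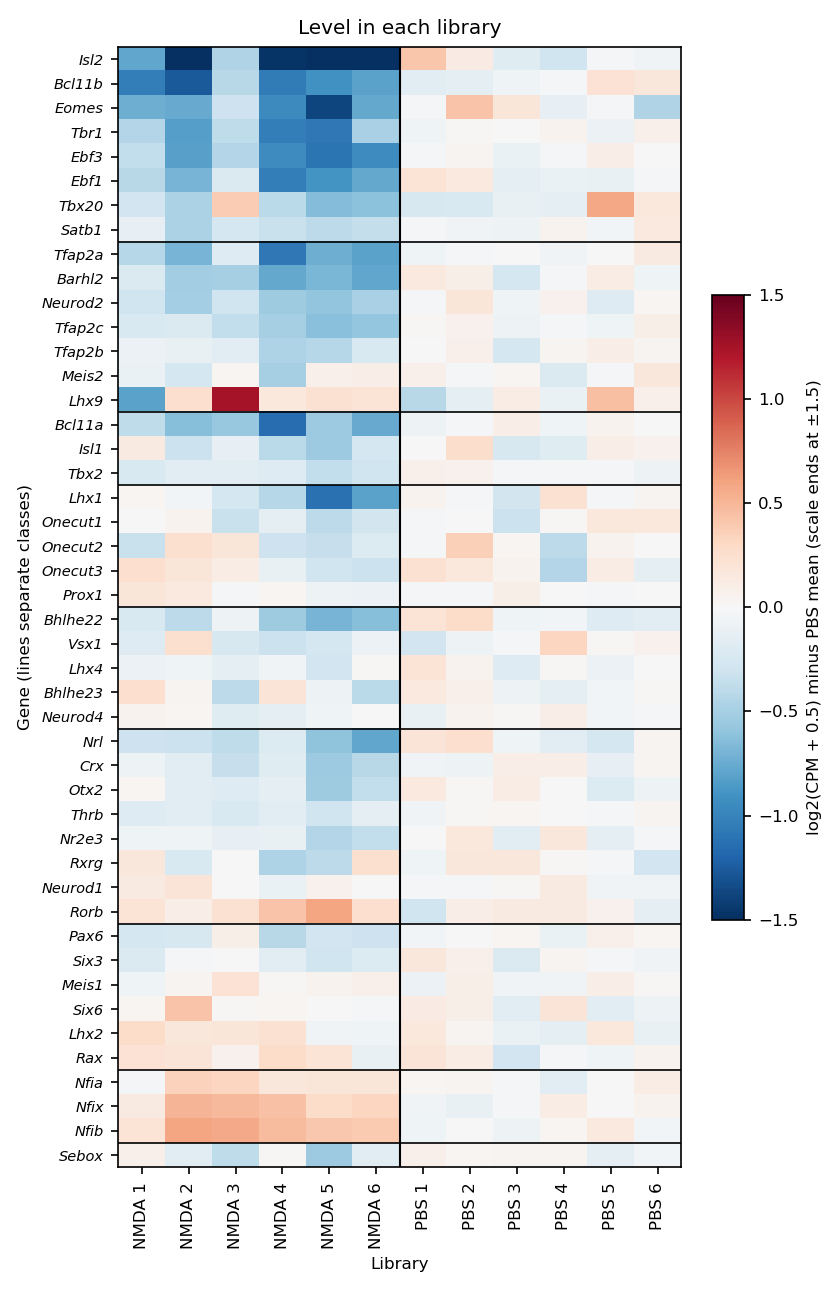
Log2(CPM + 0.5) minus the PBS mean (colour, red higher and blue lower, scale ending at ±1.5) for the 46 tested genes (rows, by class) in the 6 NMDA libraries (left) and 6 PBS libraries (right). The ganglion rows are palest in NMDA 1 and NMDA 3, where their mean is -0.52 and -0.26, and Lhx9 is darkest red in NMDA 3.

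Of 6 eye field and progenitor factors Pax6 alone passed, and the median log2 fold change was 0.07. Pax6, the paired homeobox gene that adult amacrine, ganglion and horizontal cells keep on (ENSRNOG00000004410, chromosome 3, 92135637 to 92157014), was at 207, 228 and 293 CPM with NMDA, against 259, 278.5 and 292.5 CPM with PBS (-0.23 ± 0.07, edgeR adjusted p = 0.0193). NMDA 3 was the highest of all 12 libraries and the 5 other NMDA libraries lay below every PBS library. PBS 5 was the highest of the PBS libraries. Dct, Pmel, Tyr and Mlana, given above, were also highest in NMDA 3 and PBS 5. The part of these pigment cell genes in the Pax6 level was not tested. Six3, a homeobox gene of the early forebrain and eye, was at 73.7, 79.9 and 90.7 CPM with NMDA, against 78.2, 91.0 and 102 CPM with PBS (-0.15 ± 0.07, edgeR adjusted p = 0.098). Six3 passed without PBS 3 (-0.19, adjusted p = 0.0307; 0.0307 to 0.269 over all alternatives).

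Its relative Six6 was at 0.08 ± 0.09, Meis1 at 0.06 ± 0.05 and Lhx2, which Müller glia also use, at 0.13 ± 0.08 (log2 fold change ± SE). Rax, a retinal homeobox gene of progenitors, photoreceptors and Müller glia, was at 79.9, 99.3 and 105 CPM with NMDA, against 70.7, 87.96 and 99.1 CPM with PBS (0.14 ± 0.08, edgeR adjusted p = 0.211). Sebox, a homeobox gene placed in no class, was at 45.7, 59.2 and 70.4 CPM with NMDA, against 60.2, 68.3 and 70.1 CPM with PBS (-0.18 ± 0.09, edgeR adjusted p = 0.14). Sebox passed without NMDA 1 (-0.25, adjusted p = 0.0347; 0.0347 to 0.262 over all alternatives).

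All 3 nuclear factor I genes rose. These factors act in late progenitors and Müller glia, and in mice they help keep Müller glia quiescent. Nfib (ENSRNOG00000009795, chromosome 5, 96764653 to 96975479) was at 26.3, 30.9 and 34.3 CPM with NMDA, against 21.5, 22.4 and 25.2 CPM with PBS (log2 fold change 0.45 ± 0.07, edgeR adjusted p = 0.000294). Nfix (ENSRNOG00000002983, chromosome 19, 23355498 to 23448265) was at 37.1, 44.2 and 48.2 CPM with NMDA, against 31.3, 33.6 and 36.6 CPM with PBS (0.37 ± 0.07, edgeR adjusted p = 0.000904). In both every NMDA library lay above every PBS library, with NMDA 1 the nearest to PBS.

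Nfia was at 33.0, 38.3 and 43.1 CPM with NMDA, against 30.3, 34.1 and 36.6 CPM with PBS (log2 fold change 0.20 ± 0.07, edgeR adjusted p = 0.0293), and NMDA 1 lay inside the PBS range. Nfia passed under 18 of 24 alternatives. Among others, the call ended without NMDA 2, NMDA 3, PBS 3 or PBS 4 (adjusted p = 0.0664, 0.0589, 0.0532 and 0.0659), and with the replicate block (adjusted p = 0.0506; 0.00576 to 0.0876 over all alternatives). Over 7 Müller glia markers that are no transcription factors 5 fell, none rose and 2 did not pass, with a median of -0.71. Other lists rose: of 6 endothelial markers 3 rose and none fell (median 0.45), and all 7 microglia and macrophage markers rose (median 1.24). The part of any of these cells in the nuclear factor I levels was not tested.

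Related genes did not all move alike. In 18 pairs within 10 families of tested members, the log2 ratio of the counts in each library was compared between the groups, a comparison added after the values were seen (two-sided exact permutation test over 924 assignments, adjusted over the 18 pairs), and 6 pairs passed. Each ratio has the gene with the lower fold change on top, so its sign carries no information. The Isl2 to Isl1 log2 ratio was -4.75 ± 0.73 with NMDA and -3.26 ± 0.23 with PBS (SD, n = 6 each), a difference of -1.49 without overlap between the groups (exact p = 0.00216, the smallest this test can give; adjusted p = 0.013). The Neurod2 to Neurod1 ratio differed by -0.52 and the Neurod2 to Neurod4 ratio by -0.42 (exact permutation, adjusted p = 0.013 and 0.0195).

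Nfia differed from Nfib (ratio difference -0.25, exact permutation adjusted p = 0.013), and Six3 differed from Six6 (-0.23, adjusted p = 0.0234). Tfap2a differed from Tfap2b (-0.42, exact permutation adjusted p = 0.0325), a call that ended when NMDA 1, NMDA 2, NMDA 5, NMDA 6, PBS 2, PBS 3 or PBS 6 was left out (adjusted p up to 0.0649). Of the pairs that did not pass, Bcl11b to Bcl11a differed by -0.43 (adjusted p = 0.101) and Bhlhe22 to Bhlhe23 by -0.37 (adjusted p = 0.0935; exact permutation). Bhlhe22 to Bhlhe23 and Tfap2a to Tfap2c passed without NMDA 3 (-0.51 and -0.32, adjusted p = 0.00974 for both), Tfap2c to Tfap2b without NMDA 4 or PBS 5 (-0.21 for both), Neurod4 to Neurod1 without NMDA 4 or PBS 1 (-0.12 for both), and Nfia to Nfix without PBS 4 (-0.22). Ebf3 to Ebf1 differed by -0.09 (adjusted p = 0.382), and the 3 Onecut pairs by -0.15 to -0.01.

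**Figure D4:**
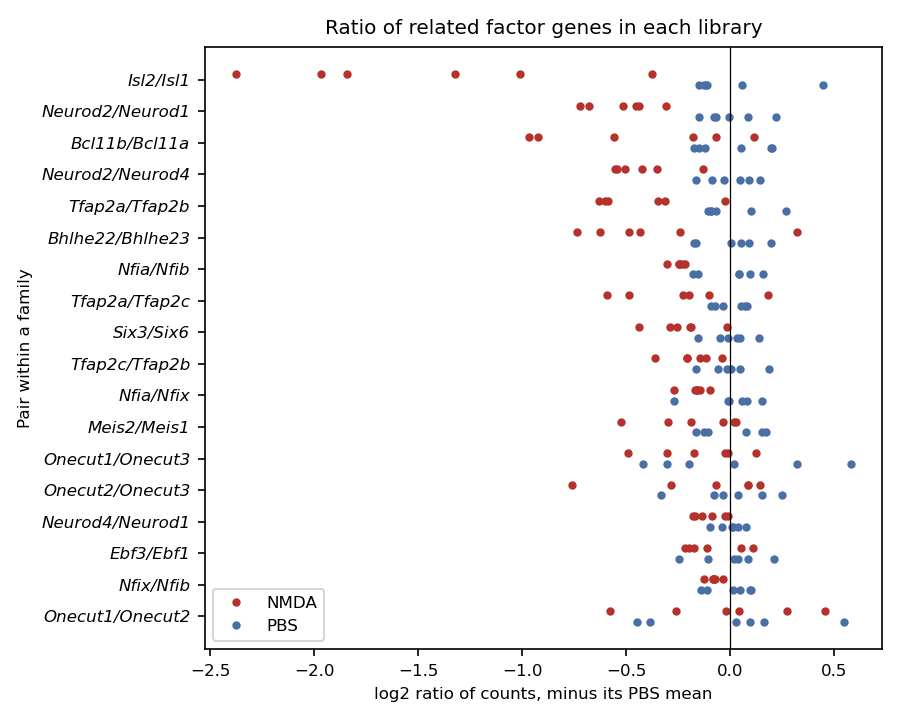
Log2 ratio of counts minus its PBS mean (horizontal axis) for 18 pairs of related genes (down the page) in each NMDA library (red) and PBS library (blue). The Isl2 to Isl1 ratio shows the widest spread among NMDA libraries and a mean difference of -1.49.

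The NMDA libraries differed among themselves. Of the 19 members that fell, 19 lay below the whole PBS range in NMDA 5, 18 each in NMDA 2, NMDA 4 and NMDA 6, 16 in NMDA 1 and 15 in NMDA 3. These 19 were picked by their fall in the same libraries, so high counts are in part built in. The mean deviation of the 8 tested ganglion factors from the PBS mean, on the log2(CPM + 0.5) scale, was -1.05 in NMDA 5, -0.93 in NMDA 2, -0.90 in NMDA 4, -0.81 in NMDA 6, -0.52 in NMDA 1 and -0.26 in NMDA 3. For the 7 amacrine factors it ran from -0.53 in NMDA 4 to -0.04 in NMDA 3, where Lhx9 alone was at 1.25. Without Lhx9, a choice made after the values were seen, the other 6 gave -0.64 in NMDA 4, -0.25 in NMDA 3 and -0.23 in NMDA 1. The 8 photoreceptor factors gave -0.27 in NMDA 5 and -0.01 in NMDA 1, where NMDA 1 lay inside the PBS range of -0.09 to 0.08. With NMDA 1 and NMDA 3 both left out, a setting chosen after the data were seen, 24 members fell and 4 rose, Isl2 by 2.27 on the log2 scale.

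Of 70 other transcription factor genes active in the retina 69 were found in the table and 63 tested. Of these, 18 fell (28.6%, against 17.5% of all tested genes) and 7 rose (11.1%, against 20.4%). Their median log2 fold change was -0.12. The largest falls by the naming rule were in Pou4f2, Hes5, Pou4f3, Pou4f1, Tfap2d and Pou3f1. The Pou4f genes encode the Brn3 factors of ganglion cells, and Pou4f3 averaged 1.75 ± 0.991 CPM with NMDA and 4.82 ± 0.62 CPM with PBS (SD, n = 6 each; -1.46 ± 0.31, edgeR adjusted p = 0.00255). Hes5, a Notch target gene, averaged 2.30 ± 1.29 CPM with NMDA and 6.55 ± 1.63 CPM with PBS (-1.51 ± 0.31, edgeR adjusted p = 0.00236). Tfap2d, a further AP-2 gene, and Pou3f1, a POU domain gene, were at -1.18 ± 0.19 and -0.92 ± 0.17 (log2).

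The largest rises were in Ikzf1, Etv5, Id1, Etv1, Maf and Hey2. Ikzf1, a zinc finger gene of lymphoid and myeloid cells, averaged 4.45 ± 2.50 CPM with NMDA and 1.22 ± 0.31 CPM with PBS (SD, n = 6 each; log2 fold change 1.87 ± 0.32, edgeR adjusted p = 0.000709). All 7 microglia and macrophage markers rose beside it, to a sum of 88.3 to 185 CPM with NMDA, against 52.0 to 74.3 CPM with PBS, and their part in the Ikzf1 value was not tested. Etv5 and Etv1, genes of ETS factors downstream of growth factor signalling, were at 1.11 ± 0.15 and 0.78 ± 0.08 (log2 fold change ± SE). Id1, an inhibitor of helix-loop-helix factors, was at 0.89 ± 0.13, and Hey2, a Notch target gene, at 0.60 ± 0.06. Of 6 endothelial markers 3 rose and none fell. The part of endothelial cells, microglia and macrophages in the values of Etv5, Etv1, Id1, Hey2 and Maf was not tested. Maf, a leucine zipper gene, was at 0.68 ± 0.21 (edgeR adjusted p = 0.0217) and did not pass without NMDA 5 (0.57, adjusted p = 0.0524) or with the replicate block (adjusted p = 0.0862; 0.00345 to 0.0862 over all alternatives).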

How the data were processed

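Counts per gene and FPKM values of 12 libraries were deposited by the authors in 1 table, per the file headers. The counts were whole numbers without further scaling, and FPKM are counts per length and depth. Bowtie2, RSEM 1.3.1 and DESeq2 1.4.5 are named in the submitters' processing notes, with no roles. How the counts came to be whole is not stated. Genome build, strand setting and handling of reads with several matches are not given in the sources used here. Positions are those of the table. RefSeq promoter windows carry the build GRCr8, and 37 of 51 members had one.

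Genes were kept by edgeR's filterByExpr (count minimum 10, total minimum 15), scaled by TMM factors (0.976 to 1.034) and tested by edgeR 4.0.16 (robust quasi-likelihood fit, group as the only term, 6 against 6) in R 4.3.3. FPKM served to compare levels between genes. Alternatives used DESeq2 1.42.0, limma 3.58.1 (voom with quality weights, and log2(FPKM + 1) or log2(FPKM + 0.1)), other scaling and filters, a replicate block and left-out libraries. Ratios of counts used a prior of 0.5 and scipy 1.17.1. Members and lists were chosen with earlier results of these data known. Every member is named, with the lowest, median and highest level for each that passed and for the 2 largest changes of a class; of the other factors the 6 largest falls and 6 largest rises that passed are named. Each library is from 1 rat, so p-values measure the spread between rats, and no label ties equal replicate numbers to a shared litter or day.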

Additional observations from a re-analysis of the deposited data

Results flagged for a closer look

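A test for a library far from the rest of its group was applied to 92 sets of 6 libraries (46 members, each group), and 8 stood out. Chance flags about 1 in 20 such sets. NMDA 3 was far above the other NMDA libraries in 3 genes: Tbx20 at 1.95 CPM against 1.03 CPM in the next library, Lhx9 at 46.1 CPM against 22.8 CPM, and Pax6 at 293 CPM against 234 CPM. Six6 was at 60.5 CPM in NMDA 2 and 46.1 CPM in the next. Among PBS libraries, PBS 6 was high in Tfap2a at 39.3 CPM against 35.9 CPM. PBS 3 was low in Tfap2b at 113 CPM against 136 CPM and high in Prox1 at 83.9 CPM against 79.4 CPM, and PBS 4 was high in Neurod1 at 333 CPM against 306 CPM.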

How the results depend on the processing

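Over 24 alternatives the number of members that fell stayed between 14 and 24 (19 as reported) and the number that rose between 3 and 4 (4 as reported). The count of 14 came from the filter of 10 CPM in 6 libraries, which kept 36 of the 46 members. Other retinal factors fell in 12 to 24 cases and rose in 5 to 10. When 1 library was left out, 18 to 24 members fell and 3 to 4 rose. No member that passed under any setting changed direction. Of 23 members that passed, 19 did so under every alternative that kept them. Tfap2b, Nfia, Pax6 and Rorb did not, Pax6 through scaling by library size only (adjusted p = 0.0508; 0.000147 to 0.0508 over all alternatives). With log2(FPKM + 1) the falls of low genes shrank by construction, Bcl11b to -0.13. Equal replicate numbers did not pair the libraries (correlations of deviations -0.19 to 0.15), and with the replicate block 20 members fell and 3 rose (Tfap2b at -0.25, adjusted p = 0.0505, did not pass). Depth limits genes of few counts, such as Atoh7, Dlx1 and Dlx2, where changes could not be seen.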

Other observations

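Some low genes of the wider list lay under the filter on counts and were looked at after their values were seen. Neurog2, a basic helix-loop-helix gene of retinal progenitors, had 169 counts in the NMDA libraries together and 21 in the PBS libraries. Its lowest, median and highest levels were 0.319, 1.12 and 1.32 CPM with NMDA, against 0, 0.152 and 0.264 CPM with PBS, so that every NMDA library lay above every PBS library. In the fit without a filter its log2 fold change was 2.78 (edgeR adjusted p = 0.000797). Vax1, a homeobox gene of the ventral eye and optic nerve, had 72 counts with NMDA and 22 with PBS (1.47, edgeR adjusted p = 0.0109 in the same fit), and Foxn4, a factor of amacrine and horizontal fate, 66 and 19 (1.59, edgeR adjusted p = 0.0552). Among the markers of ganglion cells that are no transcription factors 9 of 11 fell, and Gap43, an axon growth gene, averaged 70.2 ± 14.8 CPM with NMDA and 26.2 ± 3.06 CPM with PBS (SD, n = 6 each; 1.42 ± 0.14, edgeR adjusted p = 2.46e-05).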
